A study of Mus musculus with 10 samples.

Results

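Transcripts of the ERBB receptors and their ligands were compared between the luminal and the basal layer of the mouse mammary epithelium. The genes are the receptors Egfr, Erbb2, Erbb3 and Erbb4 and the ligands Areg, Ereg, Tgfa, Hbegf, Nrg1 and Btc, which is 10 of the 24594 genes in the count table. They were taken by name from a list of the family, which was drawn up with earlier results of these data known. The remaining ligands of the family (Egf, Epgn, Nrg2, Nrg3 and Nrg4) were read beside them. All 10 libraries came from untreated wild type C57BL/6J mice and from the virgin gland. Of these, 5 were made from luminal cells, which line the duct, and 5 from basal cells, the contractile outer layer. Both layers were taken out of dissociated tissue by flow cytometry on the surface proteins EpCAM and CD49f, and for its sorting the study describes prior staining of blood, endothelial and erythroid cells with lineage antibodies. The luminal sort holds hormone-sensing cells and luminal progenitors together, so a luminal value is an average over both. The sample titles name the opposite layer in all 10 libraries, and groups here follow the cell type label. Whether each library came from its own animal is not stated in the labels, so p-values measure the spread between these libraries.

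The receptors are tyrosine kinases that pair on binding a ligand and start the RAS-ERK cascade. EGFR binds amphiregulin (Areg), epiregulin (Ereg), TGF alpha (Tgfa), HB-EGF (Hbegf), betacellulin (Btc), epigen (Epgn) and EGF. ERBB3 and ERBB4 bind the neuregulins, and betacellulin, HB-EGF and epiregulin bind ERBB4 as well. ERBB2 has no known ligand and serves as the preferred partner of the others, while ERBB3 has little kinase activity of its own and signals through its partner. The ligands are made as membrane-anchored precursors that ADAM proteases release. In the mammary gland, amphiregulin is known as the EGFR ligand through which estrogen drives growth of the ducts.

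The layers differed in nearly every member. Of the 10 members, all of which passed the filter on low counts, 9 passed edgeR's quasi-likelihood test at an adjusted p of 0.05 (Benjamini-Hochberg over 14609 genes), against 64.8% of all genes tested. Higher in luminal cells were 6 of the 10 (Erbb2, Erbb3, Erbb4, Areg, Hbegf and Btc), against 33.6% of all genes tested. Higher in basal cells were 3 of the 10 (Egfr, Ereg and Tgfa), against 31.2%. Nrg1 was called in neither direction. For the same 9 members the values of both layers were apart, with no overlap, which held for 50.1% of all genes tested. Erbb4, Areg, Btc and Ereg passed the filter only through the layer where they are high. With at least 10 counts required in every library these 4 are not tested, which leaves 3 members called towards the luminal and 2 towards the basal layer, against 34.5% and 30.6% of all genes then tested.

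**Figure D1:**
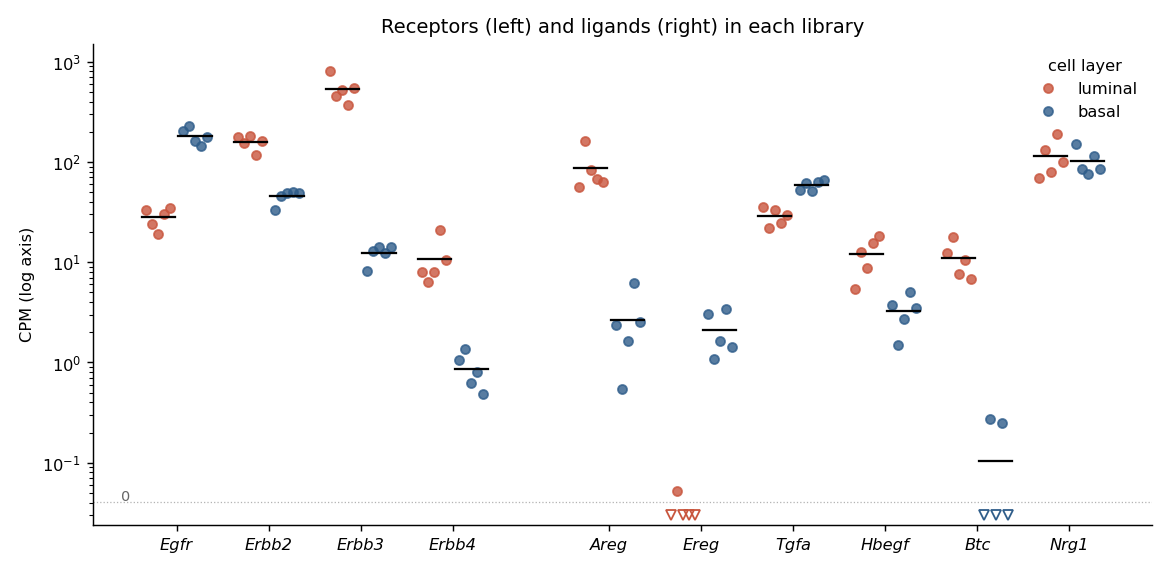
Depth-scaled counts (CPM, log axis) of each member in the 5 luminal and the 5 basal libraries. Each point is a library, each bar a group mean, and open triangles below the dotted line are libraries with 0 counts. Luminal and basal points are apart for every member except Nrg1.

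Library totals ranged from 13203146 to 17565471 counts in luminal and from 13676558 to 17998165 in basal libraries, so that 3 counts correspond to 0.158 to 0.232 CPM. All 9 luminal markers and all 7 basal markers followed the cell type label. The 7 basal markers, among them Krt5, Krt14 and Acta2, summed to 26.1 to 78.9 CPM in luminal libraries, which is 0.352% of their level in basal libraries. The 9 luminal markers summed in basal libraries to 9.86% of their luminal level, with Krt8 at 21.7%, Esr1 at 15.4% and Krt18 at 14.2%. Of the luminal subtypes, the 5 progenitor markers summed to 0.335% and the 7 hormone-sensing markers, Esr1 among them, to 1.34%. Markers of other cells were also counted, and several moved with the layer. The 5 immune markers summed to 4.13 to 11.3 CPM in luminal and 12.2 to 34.5 CPM in basal libraries, with Cd3e at 0 counts in all 10. The 3 endothelial markers summed to 1.58 to 4.06 and 5.73 to 12.4 CPM, the 4 fibroblast markers to 17.8 to 107 and 22.8 to 36.3 CPM, the 3 adipocyte markers to 0.611 to 1.595 and 3.95 to 8.88 CPM, with Adipoq at 0 in all 10, and the 2 erythroid markers to 3.37 to 16.8 and 0 to 0.188 CPM. Higher in luminal cells were Dcn (95.1 CPM in luminal replicate 1 and 11.6 to 39.5 CPM in the other luminal libraries), Hba-a1, Cd52 and Lyz2, and higher in basal cells were Cd74, Cdh5, Fabp4 and Pdgfra. The part of these cells in the values of the members was not tested. In these bulk libraries, fewer cells of a type and less RNA per cell cannot be told apart.

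Egfr, the receptor of the EGF-type ligands, was higher in the basal layer. Its levels were 33.3, 24.1, 19.1, 30.1 and 34.8 CPM in luminal replicates 1 to 5 and 205, 226, 161, 143 and 179 CPM in basal replicates 1 to 5. The lowest basal library was thus far above the highest luminal library. Means were 28.3 ± 6.58 CPM in luminal and 183 ± 33.4 CPM in basal cells (SD, n = 5 each), a log2 fold change of -2.69 (SE 0.19, adjusted p = 2.38e-08). The luminal mean of Egfr was 15.5% of the basal mean, and the summed basal markers were at 0.352%. The fibroblast markers summed to 17.8 to 107 CPM in luminal libraries, and their part in the luminal Egfr level was not tested. Egfr (Entrez 13649) lies on chromosome 11 of GRCm38, from 16752203 to 16913907 on the plus strand.

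Erbb2, the partner receptor, was higher in the luminal layer but present in both. It was measured at 177, 153, 182.5, 117 and 162 CPM in luminal and at 33.3, 46.0, 49.1, 49.8 and 48.4 CPM in basal replicates 1 to 5. Groups did not overlap, and basal replicate 1 lay below the other basal libraries. Means were 158 ± 25.9 and 45.3 ± 6.87 CPM (SD, n = 5 each), with a log2 fold change of 1.81 (SE 0.16, adjusted p = 2.13e-07). The basal mean of Erbb2 was 28.6% of the luminal mean, the highest such percentage among the receptors. Erbb2 (Entrez 13866) lies on chromosome 11, from 98412484 to 98437716 on the plus strand, and shares 9 of its 5210 exonic bases with the opposite-strand gene Mien1.

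Erbb3, the neuregulin receptor with little kinase activity, differed most among the receptors. Its levels were 798, 451, 519, 372 and 541 CPM in luminal and 8.23, 12.8, 14.2, 12.2 and 14.2 CPM in basal replicates 1 to 5. Every luminal library thus exceeded its same-numbered basal library, by 30.3-fold to 97.0-fold. The means were 536 ± 161 and 12.3 ± 2.43 CPM (SD, n = 5 each), a log2 fold change of 5.44 (SE 0.25, adjusted p = 3.72e-10). Basal Erbb3 was 2.299% of the luminal mean. Among the luminal markers, such percentages ran from 0.0834% (Prlr) to 21.7% (Krt8), with Pgr at 2.34% and Krt19 at 3.15%. Erbb3 (Entrez 13867) is located on chromosome 10, from 128567523 to 128589635 on the minus strand.

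Erbb4, the kinase-active neuregulin receptor, was the lowest of the receptors in both layers. Luminal replicates 1 to 5 had 8.07, 6.37, 8.04, 20.9 and 10.4 CPM, and basal replicates 1 to 5 had 1.06, 1.36, 0.619, 0.813 and 0.479 CPM. Luminal replicate 4 stood above the other luminal libraries, yet all of them exceeded all basal libraries. The means were 10.8 ± 5.86 and 0.867 ± 0.353 CPM (SD, n = 5 each), a log2 fold change of 3.62 (SE 0.40, adjusted p = 2.34e-06), and 3.23 without luminal replicate 4. Basal values rest on 8 to 20 counts per library. Erbb4 (Entrez 13869) spans chromosome 1 from 68031884 to 69108576 on the minus strand.

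Because long transcripts collect more reads, levels of different genes were compared only as CPM per kb of exon, a level per length. On this scale the order of the receptors in luminal cells was Erbb3 (89.1 ± 26.7 CPM per kb, SD, n = 5), Erbb2 (30.4 ± 4.97), Egfr (2.496 ± 0.581) and Erbb4 (0.871 ± 0.474). Only Egfr and Erbb4 overlapped as neighbours in that order, through luminal replicate 4. In basal cells the order was Egfr (16.1 ± 2.95 CPM per kb, SD, n = 5), Erbb2 (8.70 ± 1.32), Erbb3 (2.05 ± 0.405) and Erbb4 (0.0702 ± 0.0286), and no neighbours overlapped. Erbb3 made up 71.9% ± 3.49 (SD, n = 5) of the summed receptor level in luminal and 7.63% ± 1.54 in basal libraries. Egfr made up 2.11% ± 0.638 (SD, n = 5) in luminal and 59.6% ± 7.31 in basal libraries. The share of Erbb2 was nearer in both layers, at 25.2% ± 3.25 and 32.5% ± 5.93 (SD, n = 5 each). Within a library, the per-length level of Erbb3 was 23.3 to 51.2 times that of Egfr in luminal cells and 0.0757 to 0.166 times that of Egfr in basal cells. The summed receptor level was 123 ± 30.3 CPM per kb in luminal and 26.9 ± 2.56 CPM per kb in basal cells (SD, n = 5 each). Luminal cells thus held Erbb3 and Erbb2 as their main receptor transcripts, and basal cells Egfr and Erbb2.

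**Figure D2:**
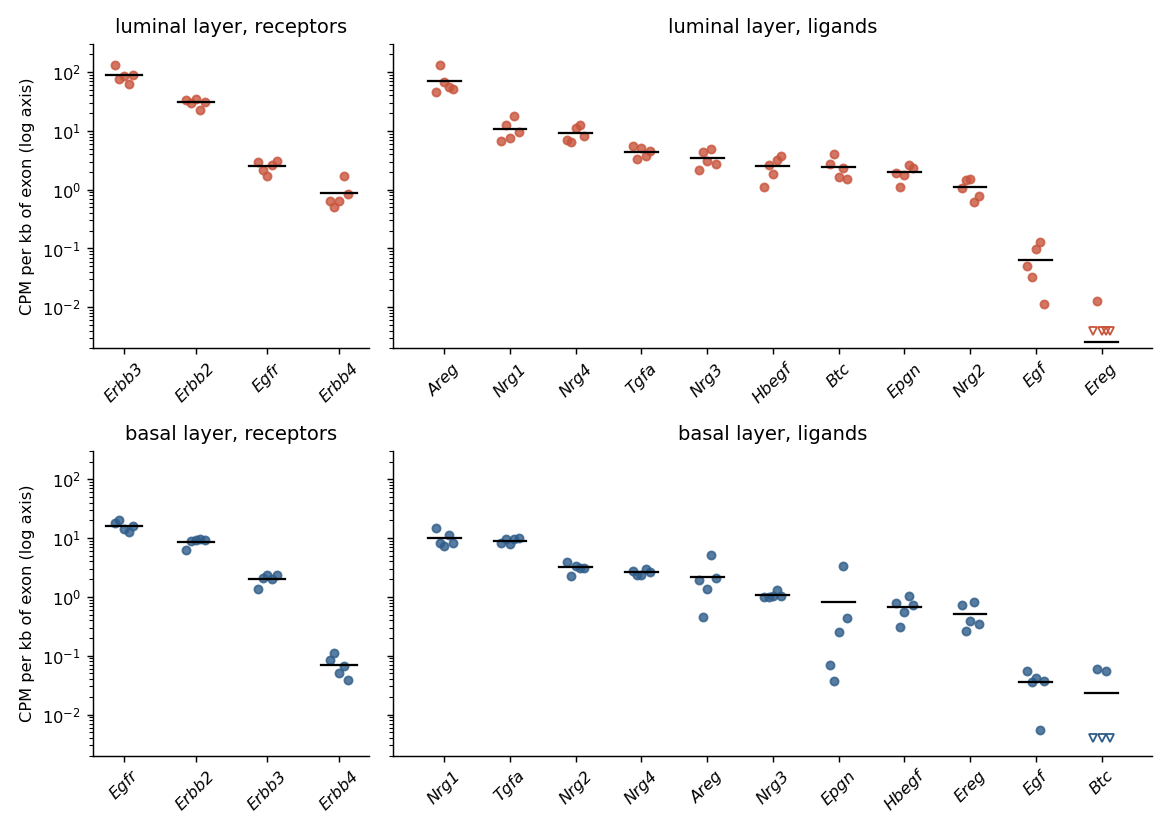
Per-length level (CPM per kb of exon, log axis) of receptors and of all 11 ligands in each layer, in descending order of the mean. Points are the 5 libraries of a layer, bars are means, and open triangles mark libraries with 0 counts, drawn at an arbitrary height. Erbb3 leads the receptors and Areg the ligands in luminal cells, while Egfr leads the receptors, and Nrg1 and Tgfa the ligands, in basal cells.

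Areg, the estrogen-responsive EGFR ligand, was the ligand with the highest level per length in luminal cells. It was measured at 55.7, 162, 83.7, 67.3 and 62.8 CPM in luminal and at 2.37, 0.546, 1.62, 6.25 and 2.52 CPM in basal replicates 1 to 5. Luminal replicate 2 stood above the other luminal libraries and basal replicate 4 above the other basal libraries, and the groups did not overlap. The difference was a log2 fold change of 5.00 (SE 0.49, adjusted p = 6.54e-07). It was 4.67 without luminal replicate 2 and 5.58 without basal replicate 4. In luminal replicate 2, where Areg was highest, the 7 hormone-sensing markers summed to 1712 CPM, the lowest of the 5 luminal libraries. Prlr (914 CPM) and Pgr (86.0 CPM) carried this low sum, against 959 to 1587 and 248 to 611 CPM in the other luminal libraries. Cited1 was highest in luminal replicate 2, at 205 CPM against 66.3 to 198 CPM. Luminal replicate 1, where Areg was lowest, had 2459 CPM of the hormone-sensing markers. It also had the highest sum of progenitor markers, at 4094 CPM against 1277 to 2860 CPM in the others. In basal replicate 4, with 100 Areg counts against 8 to 42 in the other basal libraries, the hormone-sensing markers summed to 39.1 CPM, the highest of the basal libraries (18.2 to 35.5 CPM in the others). This order rests on Wnt4, at 7.82 CPM there and 0.312 to 1.14 CPM in the others, and without Wnt4 the sum was 31.3 CPM, below that of basal replicate 3 at 34.7 CPM. Prlr was also highest in basal replicate 4, at 2.19 CPM against 0.0624 to 1.08 CPM in the other basal libraries. Cited1 (0.750 CPM) and Tnfsf11 (0 CPM) were lowest there, and Esr1, Pgr and Foxa1 were highest in basal replicate 3. The immediate-early genes, read below, had their highest luminal sum in luminal replicate 2 (4652 CPM against 3540 to 4472 CPM). Of these, Fos (324 CPM), Jun (829 CPM) and Dusp1 (135 CPM) were highest there, and Ier2 (69.3 CPM) and Zfp36 (104 CPM) lowest. The rest of the list was highest in other luminal libraries. Basal replicate 4 had 4727 CPM of the list, against 4265 to 8477 CPM in the other basal libraries. The part of these genes and of the markers in the Areg values was not tested. Areg (Entrez 11839) is located on chromosome 5, from 91139599 to 91148432 on the plus strand.

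Btc, encoding betacellulin, was almost confined to luminal libraries in these data. Its levels were 12.3, 18.01, 7.54, 10.5 and 6.85 CPM in luminal replicates 1 to 5. In basal libraries it was 0 CPM in replicates 1, 3 and 5, 0.273 CPM in replicate 2 and 0.250 CPM in replicate 4. The counts behind these values were 907 in the luminal and 8 in the basal libraries, a ratio of 108 after scaling (exact 95% interval 54.5 to 251, counting error only). The fit gave a log2 fold change of 6.61 (SE 0.62, adjusted p = 4.16e-07). Without basal replicate 2 it was 7.24 and without basal replicate 4 it was 7.20, since each of them holds 4 of the 8 basal counts. Basal Btc was 0.947% of the luminal mean, above all 5 progenitor markers (0.179% to 0.652%). Of the hormone-sensing markers, Prlr (0.0834%), Foxa1 (0.532%) and Tnfsf11 (0.859%) were lower than Btc, and Cited1 (1.07%) was higher. Wnt4 (1.41%), Pgr and Esr1 were higher than Btc. The Wnt4 value rests largely on basal replicate 4, at 7.82 CPM against 0.312 to 1.14 CPM in the other basal libraries. Btc (Entrez 12223) lies on chromosome 5, from 91357261 to 91402994 on the minus strand.

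Hbegf, whose product binds EGFR and ERBB4, was higher in luminal cells by a smaller margin. Luminal replicates 1 to 5 had 5.44, 12.6, 8.77, 15.5 and 18.4 CPM, and basal replicates 1 to 5 had 3.74, 1.501, 2.71, 5.002 and 3.48 CPM. The lowest luminal library lay only just above the highest basal library. Means were 12.1 ± 5.17 and 3.29 ± 1.30 CPM (SD, n = 5 each), a log2 fold change of 1.88 (SE 0.36, adjusted p = 0.000389). Within same-numbered pairs the luminal library was 1.45-fold to 8.39-fold higher. Hbegf (Entrez 15200) lies on chromosome 18, from 36504927 to 36515805 on the minus strand.

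Tgfa was higher in basal cells and well measured in both layers. It was at 35.5, 21.8, 33.3, 24.4 and 29.6 CPM in luminal and at 52.8, 61.5, 51.7, 63.0 and 65.8 CPM in basal replicates 1 to 5. All basal libraries lay above all luminal libraries. The means were 28.9 ± 5.80 and 59.0 ± 6.33 CPM (SD, n = 5 each), with a log2 fold change of -1.03 (SE 0.16, adjusted p = 5.55e-05), the smallest change among the 9 called members. The luminal mean of Tgfa was 49.0% of the basal mean. Tgfa (Entrez 21802) spans chromosome 6 from 86195038 to 86275744 on the plus strand.

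Ereg, encoding epiregulin, was found in basal libraries and at a single count in luminal libraries. Basal replicates 1 to 5 had 3.06, 1.09, 1.62, 3.44 and 1.44 CPM. Luminal replicate 2 had 0.0527 CPM, which is 1 count, and the other luminal libraries had 0. With 165 basal counts and 1 luminal count, the ratio after scaling was 173, with an exact 95% interval of 30.7 to 6886 that covers counting error only. The fitted difference was -6.72 on the log2 scale (SE 0.77, adjusted p = 3.25e-06). It was -8.02 without luminal replicate 2 and -5.67 in limma voom, and its size depends on the prior count of the fit. Ereg was low in the basal layer too, since its 16 to 55 counts per library correspond to 0.516 ± 0.254 CPM per kb (SD, n = 5). Ereg (Entrez 13874) lies on chromosome 5, from 91074617 to 91093649 on the plus strand, and shares 141 of its 4128 exonic bases with the opposite-strand gene Gm19610.

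Nrg1, the ligand of ERBB3 and ERBB4, was present in both layers. Its levels were 68.4, 130.3, 79.6, 188 and 99.7 CPM in luminal and 152, 84.0, 76.1, 116 and 84.6 CPM in basal replicates 1 to 5. The groups overlapped widely, and the luminal library was the higher of the pair in 4 of 5 same-numbered pairs. Means were 113 ± 48.1 and 102.5 ± 31.6 CPM (SD, n = 5 each), and the log2 fold change of 0.14 (SE 0.27) did not pass the test (adjusted p = 0.653). Its sign turned to -0.12 when luminal replicate 4 was left out. These values do not show that the layers are alike in Nrg1, since the SE of 0.27 leaves room for a modest difference in either direction. Nrg1 (Entrez 211323) spans chromosome 8 from 31807452 to 32891609 on the minus strand, and shares 482 of its 10351 exonic bases with Gm26578 on the opposite strand. The count table holds gene totals, so the isoforms of Nrg1 were not analysed here.

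**Figure D3:**
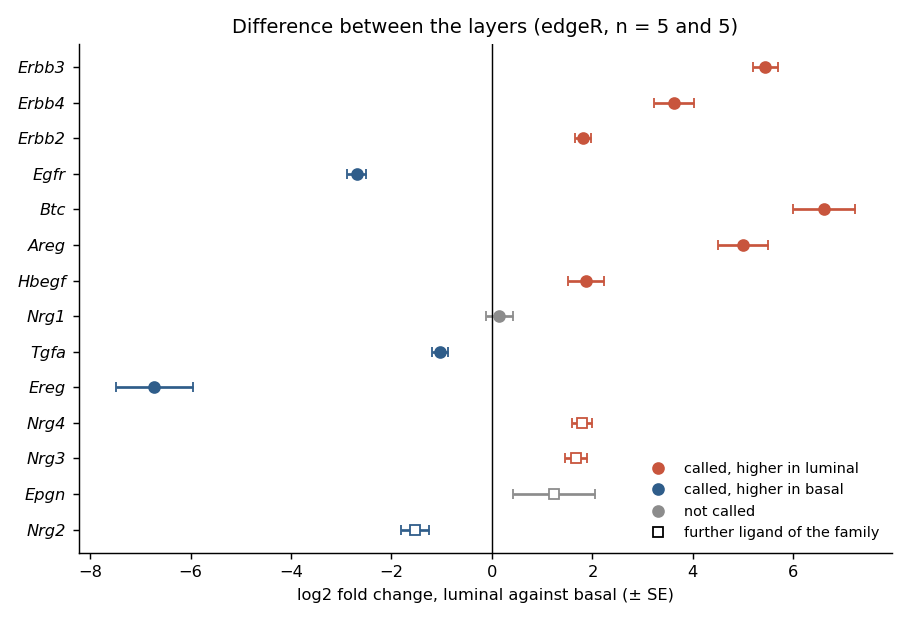
Log2 fold change of luminal against basal cells with its standard error (edgeR quasi-likelihood fit, 5 libraries per layer). Circles are the 10 members and open squares the further ligands of the family. Points right of 0 are higher in luminal cells, Erbb3 at 5.44 and Btc at 6.61, and points left of 0 are higher in basal cells, Egfr at -2.69 and Ereg at -6.72.

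The further neuregulins were split between the layers. Nrg4, a ligand of ERBB4, was at 55.4 ± 16.03 CPM in luminal and 15.96 ± 1.66 CPM in basal cells (SD, n = 5 each), a log2 fold change of 1.79 (SE 0.19, adjusted p = 1.69e-06). It shares 368 of 6075 exonic bases with the opposite-strand gene Fbxo22, itself at 73.7 CPM in luminal and 26.9 CPM in basal cells, and the use of strand in counting is not stated. Nrg3, also an ERBB4 ligand, was at 23.4 ± 7.55 and 7.32 ± 0.946 CPM (SD, n = 5 each), a log2 fold change of 1.67 (SE 0.22, adjusted p = 1.49e-05). Nrg2, a ligand of ERBB3 and ERBB4, went the other way, at 3.42 ± 1.29 CPM in luminal and 9.94 ± 1.88 CPM in basal cells (SD, n = 5 each), a log2 fold change of -1.53 (SE 0.28, adjusted p = 0.000283). For each of these 3 genes the layers did not overlap.

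Epgn, encoding the EGFR ligand epigen, was not called, and its call changed with 1 library and with the method. Luminal replicates 1 to 5 had 3.502, 2.001, 3.25, 4.81 and 4.25 CPM, while basal replicates 1 to 5 had 0.125, 0.0682, 0.464, 6.06 and 0.779 CPM. The highest value of all 10 libraries was thus in basal replicate 4, with 97 counts against 1 to 13 in the other basal libraries. The fit gave a log2 fold change of 1.23 (SE 0.81, adjusted p = 0.201). With the replicate block it was 2.52 (adjusted p = 0.0125), in limma voom 2.65 (adjusted p = 0.00646), and in edgeR without basal replicate 4 it was 3.26 (adjusted p = 0.000335). Egf itself was too low to be tested, at 0.127 to 1.45 CPM in luminal and 0.0625 to 0.624 CPM in basal libraries.

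Among all 11 ligands, the order per length differed between the layers. In luminal cells Areg was at 71.0 ± 35.7 CPM per kb (SD, n = 5), above every library of the next ligand, Nrg1, at 10.9 ± 4.65. Nrg1 and Nrg4 (9.11 ± 2.64 CPM per kb) overlapped, and from Tgfa (4.45 ± 0.894) down to Nrg2 (1.09 ± 0.411) each ligand overlapped the next in order. Egf (0.0641 ± 0.0482 CPM per kb) and Ereg (0.00255 ± 0.00571) came last. In basal cells Nrg1 (9.90 ± 3.05 CPM per kb) and Tgfa (9.09 ± 0.975) led and overlapped, and no library of Nrg2, the next at 3.17 ± 0.601, reached them. From Nrg2 through Nrg4, Areg, Nrg3, Epgn and Hbegf to Ereg each overlapped the next in order, and Egf and Btc were last. Basal Areg was at 2.19 ± 1.77 CPM per kb and at 1.45 without basal replicate 4. Basal Epgn was at 0.830 ± 1.42 CPM per kb and at 0.199 without the same library, which puts it below Hbegf and Ereg. With the longest transcript as the length, luminal Nrg4 (26.4 CPM per kb) came above luminal Nrg1 (20.9), while Areg remained first at 71.0. The same lengths gave 18.9 CPM per kb for Nrg1 and 13.02 for Tgfa in basal cells, again the highest there, and placed basal Nrg4 (7.62) above Nrg2 (3.25).

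Summed by class, the 7 EGFR ligands reached 82.4 ± 35.5 CPM per kb in luminal and 13.4 ± 4.004 CPM per kb in basal cells (SD, n = 5 each). Without Areg the sums of the remaining 6 were 11.5 ± 0.715 and 11.2 ± 2.32 CPM per kb (15.5 and 15.6 with the longest transcript as the length), with luminal libraries at 10.5 to 12.2 and basal libraries at 9.22 to 14.99. The layers thus overlapped once Areg was set aside. Tgfa made up 82.9% ± 10.7 (SD, n = 5) of this remainder in basal and 39.2% ± 9.05 in luminal libraries, and in luminal replicate 2 Btc (3.99 CPM per kb) exceeded Tgfa (3.36). The 4 neuregulins summed to 24.6 ± 7.17 CPM per kb in luminal and 16.8 ± 3.69 CPM per kb in basal cells, and these ranges overlapped too (16.96 to 36.3 and 13.8 to 22.4). With the longest transcript as the length these sums were 54.3 and 31.6 CPM per kb. The neuregulin sum mixes receptors, since Nrg3 and Nrg4 were described above as ERBB4 ligands. Per kb of exon, Nrg4 was at 9.11 CPM in luminal and 2.63 in basal cells, and Nrg3 at 3.43 and 1.07. Nrg1, which also binds ERBB3, was at 10.9 and 9.90, and Nrg2, which does so too, at 1.09 and 3.17. Of the 6 ligand members alone, Areg made up 76.0% ± 7.30 (SD, n = 5) of the luminal sum, and Nrg1 and Tgfa 43.8% ± 7.03 and 41.8% ± 8.50 of the basal sum. Egfr, the receptor of Areg, was thus highest in the layer that held 3.09% of the luminal Areg level, and Erbb3, the receptor of Nrg1, was highest in the luminal layer while Nrg1 was found in both.

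Epgn, Ereg, Areg and Btc lie side by side within 375.5 kb of chromosome 5, and Ereg and Areg, next to each other, went to opposite layers. From the start of Epgn, Ereg begins at 47.1 kb, Areg at 112.1 kb and Btc, on the opposite strand, ends its span at 375.5 kb. Ereg, higher in basal cells, is 45949 bases from Areg, higher in luminal cells. Btc, higher in luminal cells, lies 208828 bases beyond Areg. The non-coding gene Gm19619 between Areg and Btc had 94 counts in all, at 1.15 ± 0.598 CPM in luminal libraries (SD, n = 5) and 0 in all basal libraries, and was too low to be tested.

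The 250 bases before the start of Areg, Btc and Epgn are shown because these genes are neighbours. They are from RefSeq, build GRCm38.p6, 5′ to 3′ on the strand of the gene. Windows were found for 6 of the 10 members, Tgfa among them, and for further ligands, Epgn among them. There was none for Ereg, so no window of the neighbour higher in basal cells is compared here. The letters searched for, on both strands, were TATAAA as in a TATA box. Beside it, TGACGTCA was taken for a cAMP response element. GGGCGG was taken for a GC box and AGATAA for a GATA motif. None of the 4 overlaps another in these windows, and matches are in capitals. The sequences are chr5:91139349-91139598 (plus strand) for Areg, chr5:91402995-91403244 (minus strand) for Btc and chr5:91027267-91027516 (plus strand) for Epgn.

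Areg: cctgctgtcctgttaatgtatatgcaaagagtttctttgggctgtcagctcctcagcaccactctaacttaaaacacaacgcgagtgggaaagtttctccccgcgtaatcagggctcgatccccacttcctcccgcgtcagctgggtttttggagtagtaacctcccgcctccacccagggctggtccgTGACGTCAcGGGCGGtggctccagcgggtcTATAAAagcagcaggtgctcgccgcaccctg

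Btc: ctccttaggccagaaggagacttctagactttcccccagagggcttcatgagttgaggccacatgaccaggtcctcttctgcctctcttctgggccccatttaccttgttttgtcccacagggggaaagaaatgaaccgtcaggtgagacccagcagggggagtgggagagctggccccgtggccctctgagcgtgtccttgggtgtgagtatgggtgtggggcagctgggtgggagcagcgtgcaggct

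Epgn: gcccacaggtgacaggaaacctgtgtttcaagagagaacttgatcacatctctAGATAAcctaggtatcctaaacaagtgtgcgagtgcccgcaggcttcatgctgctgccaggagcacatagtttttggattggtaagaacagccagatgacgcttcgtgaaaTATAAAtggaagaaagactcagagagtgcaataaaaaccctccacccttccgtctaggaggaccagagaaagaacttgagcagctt

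The Areg sequence holds TATAAA, beginning 31 bases before the start, together with TGACGTCA and GGGCGG. Among 32851 promoters of the same length, 12.4% hold TATAAA, 1.55% TGACGTCA and 32.7% GGGCGG. The Epgn sequence holds TATAAA, 86 bases before the start, and AGATAA, which 9.99% of promoters hold. None of these letters is in the Btc window. The GC content was 57.2% for Areg, 59.6% for Btc and 46.8% for Epgn, with a median of 52.4% over all promoters. Such matches describe the sequence only and are no evidence of binding.

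Egfr and Erbb2 are both on chromosome 11 and went to opposite layers, so their windows are shown in the same way. They are chr11:16751953-16752202 for Egfr and chr11:98412234-98412483 for Erbb2, both on the plus strand.

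Egfr: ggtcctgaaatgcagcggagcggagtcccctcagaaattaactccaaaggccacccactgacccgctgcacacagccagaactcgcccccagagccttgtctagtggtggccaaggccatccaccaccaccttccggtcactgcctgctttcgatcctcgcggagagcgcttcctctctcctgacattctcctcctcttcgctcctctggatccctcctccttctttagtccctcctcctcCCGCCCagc

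Erbb2: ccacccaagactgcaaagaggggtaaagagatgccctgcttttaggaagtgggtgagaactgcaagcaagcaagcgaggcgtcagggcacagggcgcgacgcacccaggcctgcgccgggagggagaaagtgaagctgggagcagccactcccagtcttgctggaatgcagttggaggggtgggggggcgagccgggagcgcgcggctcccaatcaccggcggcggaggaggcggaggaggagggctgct

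Neither holds TATAAA. Egfr has 1 GC box, read as CCGCCC, and Erbb2 has none of the 4 motifs. Their GC contents were 60.8% and 66.0%, above 73.9% and 84.5% of all promoters.

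Erbb2 sits among genes that were also higher in luminal cells. This region was chosen after its values were seen. Within 100 kb of Erbb2, 10 other genes are in the count table and 6 of them passed the filter. All 6 were higher in luminal cells, against 33.6% of all genes tested. Ppp1r1b and 1700003D09Rik passed only through the luminal layer, and with at least 10 counts in every library the other 4 were tested and higher in luminal cells, against 34.5% of all genes then tested. The 6 tested neighbours were Ppp1r1b (log2 fold change 5.62), 1700003D09Rik (5.35), Stard3 (2.39, SE 0.16, adjusted p = 1.45e-08), Pgap3 (1.98), Mien1 (3.10) and Grb7 (3.30, SE 0.17, adjusted p = 8.57e-10). Stard3 encodes a cholesterol-binding protein of late endosomes, and Grb7 an adaptor that binds ERBB receptors. Grb7 was at 132 ± 21.4 CPM in luminal and 13.3 ± 2.13 CPM in basal cells (SD, n = 5 each), and lies within the span of Mien1, so reads could be shared between them, as between Ppp1r1b and 1700003D09Rik. The 4 genes not tested, Neurod2, Tcap, Pnmt and Ikzf3, had 0 to 8 counts in all 10 libraries together. The log2 fold change of Erbb2 itself, 1.81, was the lowest of the 7.

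**Figure D4:**
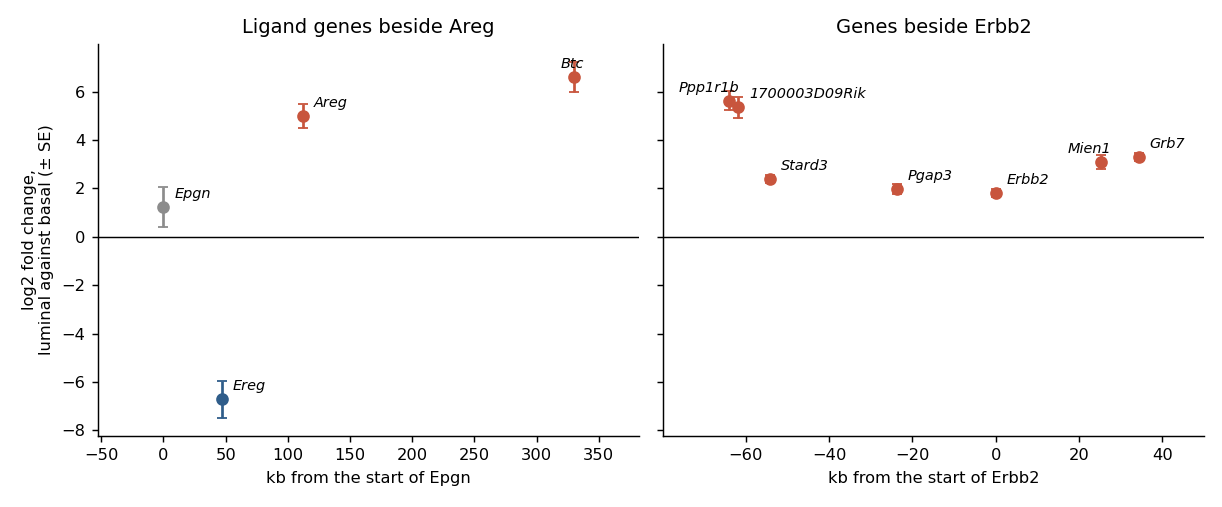
Log2 fold change (luminal against basal, with standard error, edgeR) of the ligand genes around Areg, left, and of the tested genes around Erbb2, right, against the distance in kb from the start of Epgn or of Erbb2. Red is higher in luminal, blue higher in basal and grey not called. Ereg, at -6.72, lies between Epgn and Areg, whereas the genes around Erbb2 all lie above 0.

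The genes whose pattern was most like that of a member were found by Pearson correlation of log2(CPM + 1) over the 10 libraries, among 10794 genes. Since the split between the layers dominates these values, the correlations mainly restate it, and they are given as a description. The most similar genes were Rai14 (r = 0.994) and Pls3 (0.994) for Egfr, Stard3 (0.995) and AU022754 (0.994) for Erbb2, Grb7 (0.999) and Podxl (0.999) for Erbb3, and Gfod2 (0.986) and Esrrg (0.985) for Erbb4. For the ligands they were Klf5 (0.989) and Tmcc3 (0.989) for Areg, G0s2 (0.980) and Dnajb11 (0.979) for Ereg, Kat2a (0.979) and B230219D22Rik (0.976) for Tgfa, Rpl3 (0.969) and Hspd1 (0.968) for Hbegf, and Tph1 (0.994) and Wfdc12 (0.991) for Btc. With a pseudocount of 0.1 in place of 1 the order turned for Ereg (Dnajb11 0.989, G0s2 0.977), Hbegf (Hspd1 0.964, Rpl3 0.961) and Nrg1 (Rpl10a 0.956, Znrd1 0.955), and Tph1 and Wfdc12 were at 0.979 and 0.969 to Btc. Nrg1, which did not follow the layers, was nearest to Znrd1 (0.956) and Rpl10a (0.955). Stard3, nearest to Erbb2, is thus also among its neighbours on the chromosome.

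Of the 7 genes that release the ligands, 2 were higher in luminal cells, 3 were higher in basal cells and 2 did not pass the test, near the 33.6% and 31.2% of all genes tested, with a median log2 fold change of -0.10 against 0.05 over all genes tested. Adam10, the protease known to release betacellulin and EGF, was at 506 ± 41.1 CPM in luminal and 63.6 ± 12.8 CPM in basal cells (SD, n = 5 each), a log2 fold change of 2.99 (SE 0.16, adjusted p = 1.77e-09). Adam17, known to release amphiregulin, TGF alpha, HB-EGF and epiregulin, was at 54.0 ± 6.61 and 45.2 ± 4.98 CPM and was not called (log2 fold change 0.25, SE 0.13, adjusted p = 0.109). It was called with upper-quartile factors (0.38, adjusted p = 0.0193) and with library totals (0.45, adjusted p = 0.0104). Adam12, a metalloprotease also known to cleave HB-EGF, was at 0.675 ± 0.293 CPM in luminal and 25.6 ± 3.28 CPM in basal cells, a log2 fold change of -5.26 (SE 0.30, adjusted p = 2.78e-09). It passed the filter only through the basal layer, and without it 2 genes of the list are higher in basal cells. Adam15 was higher in luminal cells (0.62, adjusted p = 0.00164). Rhbdf1 (-0.62) and Rhbdf2 (-0.35, adjusted p = 0.0189), which encode the iRhom partners of ADAM17, were higher in basal cells. The call of Rhbdf2 was lost with upper-quartile factors (adjusted p = 0.0939) and with library totals (adjusted p = 0.294), and that of Rhbdf1 with library totals (adjusted p = 0.0958).

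Of the 10 genes listed under receptor restraint, 8 were higher in basal cells, against 31.2% of all genes tested, and 2 were not called. Their median log2 fold change was -0.78. Lrig2 and Lrig3 are on the list by family, and whether they restrain the receptors was not tested. None was higher in luminal cells in edgeR, in DESeq2 or in limma voom, nor at an unadjusted p under 0.05, since all 10 log2 fold changes of the fit were below 0 (-4.45 to -0.21). Lrig3, of a family of transmembrane proteins known to act on ERBB receptors, was at 3.78 ± 1.74 CPM in luminal and 83.5 ± 12.9 CPM in basal cells (SD, n = 5 each), a log2 fold change of -4.45 (SE 0.27, adjusted p = 5.19e-09). Errfi1, the feedback inhibitor of EGFR kinase activity, was at 280, 384, 322, 334 and 294 CPM in luminal and at 2571, 1527, 1422, 1157 and 1841 CPM in basal replicates 1 to 5. All basal libraries were above all luminal libraries, with a log2 fold change of -2.40 (SE 0.22, adjusted p = 2.66e-07). Lrig1, a negative regulator of ERBB receptors, was at 47.4 ± 6.34 and 102.0 ± 6.33 CPM (log2 fold change -1.11, SE 0.13, adjusted p = 3.40e-06). The ubiquitin ligase gene Cbl was also higher in basal cells (-0.74), and Cblb (-0.21) and Socs4 (-0.26) were not called.

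Of 19 adaptors and genes of the RAS-ERK core, 6 were higher in luminal cells, 8 higher in basal cells and 5 not called, with a median log2 fold change of -0.33. These counts lie near the shares over all genes tested, 33.6% and 31.2%. The largest changes towards the luminal layer were those of Grb7 (3.30) and Gab2 (2.28, SE 0.22, adjusted p = 4.79e-07), which encode docking proteins. Towards the basal layer they were those of the scaffold gene Ksr1 (-2.65, SE 0.23, adjusted p = 2.24e-07) and the kinase gene Braf (-1.30, SE 0.20, adjusted p = 4.42e-05).

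Of 14 genes known as outputs or feedback of ERK, 9 were higher in basal cells, against 31.2% of all genes tested, 1 was higher in luminal cells (2 without basal replicate 1) and 4 were not called, with a median log2 fold change of -1.04. Fosl1, a transcription factor of the AP-1 family, was at 5.38 ± 0.383 CPM in luminal and 36.2 ± 13.1 CPM in basal cells (SD, n = 5 each), a log2 fold change of -2.75 (SE 0.24, adjusted p = 2.40e-07). Etv5 (-2.56, SE 0.32, adjusted p = 6.50e-06), the ERK phosphatase gene Dusp6 (-2.10, SE 0.28, adjusted p = 1.44e-05) and the inhibitor gene Spry2 (-1.94, SE 0.23, adjusted p = 4.07e-06) went the same way. Phlda1 was higher in luminal cells, at 334 ± 97.9 against 96.6 ± 72.5 CPM (log2 fold change 1.79, SE 0.41, adjusted p = 0.00144).

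These genes also respond to the handling of tissue, and a list of immediate-early genes was read beside them. Of its 10 genes, 9 were higher in basal cells, against 31.2% of all genes tested. The heat shock gene Hspa1a (1.20, SE 0.30, adjusted p = 0.00307) was higher in luminal cells, and the median log2 fold change of the list was -1.14. Nr4a1 (-2.51, SE 0.44, adjusted p = 0.000186) and Dusp1 (-2.07, SE 0.19, adjusted p = 4.07e-07) changed most. The summed level of the list was 3540 to 4652 CPM in luminal libraries and 8477, 5030, 4265, 4727 and 6245 CPM in basal replicates 1 to 5. The same basal replicates 1 and 5 were the highest in Errfi1, in Dusp6 (525 and 492 CPM, against 213 to 275 CPM in the others) and in Spry2 (282 and 213 CPM, against 121 to 134 CPM). Basal Egfr had its highest value in replicate 2. Of the ligand members, basal Areg, Ereg and Hbegf were highest in replicate 4, Nrg1 in replicate 1, Tgfa in replicate 5 and Btc in replicate 2. Dissociation preceded the sort of both layers. Whether the layers responded alike to it was not tested, nor was its part in these differences.

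**Figure D5:**
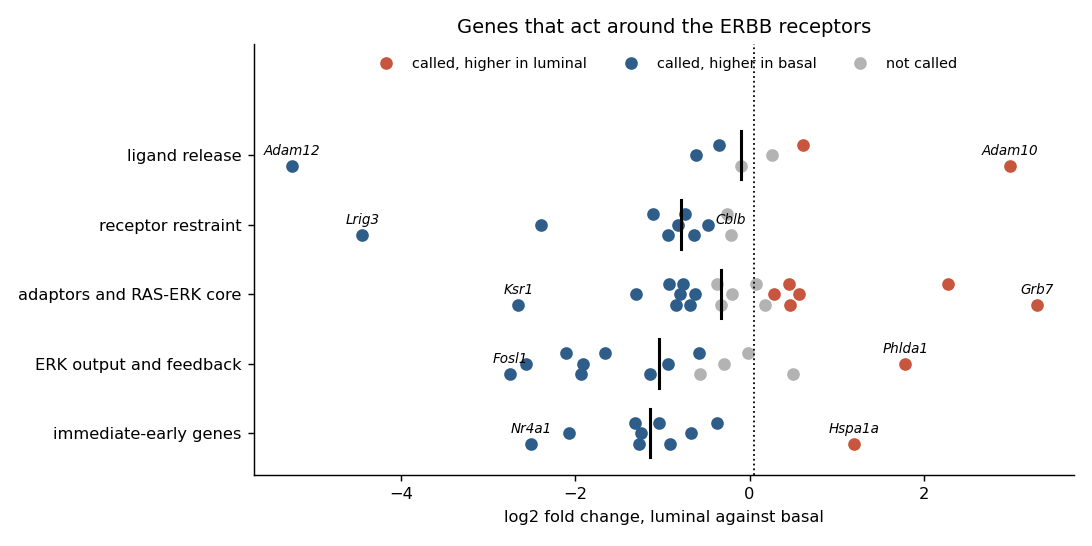
Log2 fold change (luminal against basal) of each gene of the 5 lists around the receptors. Red is called and higher in luminal, blue called and higher in basal and grey not called. Black bars are the medians of the lists, and the dotted line is the median of all genes tested at 0.05. The lists of receptor restraint, ERK output and immediate-early genes lie mostly left of the line.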

How the data were processed

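RNA was sequenced from 10 libraries, 5 of sorted luminal and 5 of sorted basal cells, grouped by the cell type label. The file deposited by the authors holds unnormalized whole-number counts, with 1 row per gene. The processing notes list cutadapt 4.2, Bowtie2 2.3.5.1 and the builds hg19 and mm10. The study's RNA-seq methods name poly(A) selection, adapter trimming with cutadapt and single-end reads aligned to mm10 with bowtie2. The study also gives fewer replicates per condition than here, so it was assumed that these steps hold. How reads were counted, with which annotation and strand setting, is not given in the sources used here. Bowtie2 does not align across splice junctions, which can lower counts of genes with many short exons. Entrez identifiers were matched to symbols in a RefSeq table of GRCm38.p6 (24570 of 24594), which also gave coordinates, and exonic lengths are the union of GENCODE M21 exons.

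Genes were filtered with filterByExpr (minimum count 10, minimum total 15), which kept 14609 and dropped 9985, and scaled with TMM factors. The layers were compared by a quasi-likelihood test in edgeR (4.0.16, R 4.3.3, two-sided) with a single cell type term and Benjamini-Hochberg adjustment over all genes tested. A gene was called at an adjusted p under 0.05. Fold changes are luminal against basal. Standard errors (SE) were taken as the absolute log2 fold change over the root of the F statistic. CPM are counts divided by the TMM-scaled total, in the usual unit. Intervals on pooled ratios and the floor of 3 counts cover counting error only. The fit was tested on simulated data.

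The members and all lists were chosen with earlier results of these data known. Genes named are the members and the 5 further ligands; per list the 2 largest called changes in each direction (at least 10 CPM in the higher layer and 1 direction in all 5 pairs); the cell markers; and the 2 most similar genes per member. Others (Adam17, Rhbdf1, Lrig1, Cbl, Cblb, Socs4, Dusp6, Spry2 and the neighbours of Erbb2 and Areg) were chosen after their values were seen. Alternatives were DESeq2 size factors, upper-quartile factors, library totals, no filter, at least 10 counts in every library, DESeq2 1.42.0, limma voom 3.58.1, the replicate number as a block, the longest transcript as length, a pseudocount of 0.1 and leaving out each library. Same-numbered libraries share a leading number in the library description, which the labels do not explain. It was read as the animal, and the pairing rests on that reading. Deviations of same-numbered libraries from the group means correlated at -0.105 to 0.169, with a mean of 0.0369 against -0.00626 for other pairs. No 2 libraries of a layer agreed within sampling noise.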

Additional observations from a re-analysis of the deposited data

Results flagged for a closer look

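The members, the 5 further ligands and the genes the rule named from the pathway lists were looked at in 61 groups of 5 values. Luminal Ereg, with 1 count in replicate 2 and 0 in the other luminal libraries, is not among these groups. Other genes of the lists were not looked at in this way. Dixon's test at the 95% level set 1 value apart in 7 of them, where chance gives about 3.05. Among the receptors these were Erbb2 in basal replicate 1, low at 33.3 CPM against 46.0 to 49.8 CPM in the other basal libraries, and Erbb4 in luminal replicate 4, high at 20.9 CPM against 6.37 to 10.4 CPM. Among the ligands they were Areg in luminal replicate 2, high at 162 CPM against 55.7 to 83.7 CPM, Epgn in basal replicate 4, high at 6.06 CPM against 0.0682 to 0.779 CPM, and Nrg3 in the same basal replicate 4, high at 9.003 CPM against 6.75 to 7.04 CPM. Among the genes named from the pathway lists, Ksr1 was low in basal replicate 1, at 76.8 CPM against 102 to 109 CPM, and Dusp1 was high in luminal replicate 2, at 135 CPM against 86.6 to 100.1 CPM. Basal replicate 1 was also the basal library with the highest sum of immediate-early genes.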

How the results depend on the processing

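Over the members, 175 of 176 alternative values kept their direction and their side of the threshold. The exception was Nrg1, not called in any alternative, whose log2 fold change of 0.14 reversed to -0.12 without luminal replicate 4 and ranged from -0.12 to 0.32 over the libraries left out. Requiring at least 10 counts in every library lowered the members higher in luminal cells from 6 to 3 and those higher in basal cells from 3 to 2, because Erbb4, Areg, Btc and Ereg were then not tested. With the replicate block the counts stayed at 6 and 3, and over all genes it called 4740 towards the luminal and 4539 towards the basal layer. Among the named genes tested, the block changed the call of Epgn alone, whose log2 fold change went from 1.23 to 2.52. Leaving out a library called 4625 to 5012 genes towards the luminal and 4251 to 4612 towards the basal layer. Library totals shifted the median log2 fold change by 0.19, upper-quartile factors by 0.12 and DESeq2 size factors by -0.04, and under each of them the 9 called members kept their direction. Library totals lowered the ligand-release genes higher in basal cells from 3 to 1 (Rhbdf1 and Rhbdf2 lost), with Adam17 called as luminal there and under upper-quartile factors, and with either of the first 2 scalings ERK output genes higher in luminal cells went from 1 to 2, as they did without basal replicate 1. Genes of the restraint list higher in basal cells went from 8 to 6 with library totals, and to 7 without luminal replicate 2 or basal replicate 5. ERK output and immediate-early genes higher in basal cells numbered 8 or 9 over the alternatives, 8 with the replicate block. Adaptors and RAS-ERK core genes ranged from 4 to 7 towards the luminal and from 7 to 9 towards the basal layer. The longest transcript as length raised the per-length levels of Tgfa, Hbegf, Nrg1, Nrg3, Nrg4 and Egf, and with them the sum of the neuregulins. Causes were not tested. Ereg in luminal, and Btc and Erbb4 in basal cells, rest on 20 counts or fewer per library, which limits the precision of their folds.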
